A study of Mus musculus with 16 samples.

Results

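The lysosome is the acid compartment in which cathepsins and other hydrolases break down protein, lipid and glycan. The 29 lysosome and cathepsin genes described here were taken from 24469 gene names: the cathepsins, legumain, lysosomal membrane proteins, lipid and glycan hydrolases, and 2 genes known from osteoclasts. Each was found by its symbol, with the values of all entries of a symbol summed, and read in the 8 libraries of CD45+ cells by cell type, tissue and condition. The mice were C57BL/6, aged 8 weeks, and were either Aire+/+ or littermates of the Aire-/- line, which carries a germline deletion in Aire. All of them received MC38 colon carcinoma cells under the skin and then an anti-PD1 antibody (RMP1-14) or an isotype antibody (2A3) over 5 injections, and tissue was taken on day 19. Each tumor library drew on 4 to 6 mice whose tissue was mixed, and the spleens were mixed likewise, so each of the 4 conditions had 1 CD45+ library per tissue and no replicate. Values in fours follow the order Aire+/+ with isotype, Aire+/+ with anti-PD1, Aire-/- with isotype, then Aire-/- with anti-PD1, and CPM are UMIs of a gene over all UMIs of the gate in that library, scaled to 1e6.

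Aire itself had 0, 2, 1 and 0 UMIs in the CD45+ tumor libraries and 2, 5, 4 and 0 in the CD45+ spleen libraries. In the CD8+ sorted libraries Aire had 6, 3, 1 and 0 UMIs in tumor and 0, 0, 0 and 0 in spleen. Aire+/+ and Aire-/- libraries both held few or no Aire UMIs, so the genotype of a library could not be checked from them, and a tag outside the deleted part would check nothing. After the cell filter the tumor libraries held 2930, 2208, 1856 and 2075 cells with medians of 11892, 11858, 12252 and 9889 UMIs per cell. Spleen libraries held 2095, 2088, 2023 and 2393 cells with medians of 4549, 4414, 4733 and 4502 UMIs. Tumor cells were deeper than spleen cells in every condition, and the Aire-/- anti-PD1 tumor library was the shallowest of the tumor libraries.

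Lysosomal hydrolases are made as precursors and matured by proteolysis in acid vesicles, and many of them are transcribed from promoters with a shared E-box motif. Macrophages and dendritic cells use these enzymes to degrade ingested cells and to trim antigens and the invariant chain. T and B cells hold smaller lysosomal compartments, some of which serve secretion.

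Cells were assigned by UMIs of fixed genes, and the labels were checked with other markers. Macrophages, cells with 5 or more UMIs of the complement genes C1qa, C1qb and C1qc, made up 1222, 817, 586 and 242 cells of the tumor libraries, or 41.7, 37.002, 31.6 and 11.7% of cells. Their share was highest in the Aire+/+ isotype library and lowest in the Aire-/- anti-PD1 library. Monocytes numbered 812, 557, 506 and 402, dendritic cells 89, 70, 84 and 89 and T cells 349, 379, 335 and 931 in the same libraries, and 15.4, 17.03, 18.5 and 19.6% of cells had no gate. Summed CPM of the macrophage check list (Csf1r, Adgre1, Mrc1, Msr1, Ms4a7 and Apoe) were 4905, 6183, 3874 and 2833 in macrophages and 2437, 2977, 2115 and 1812 in monocytes. All 6 genes had UMIs in both gates, Apoe had the most, and Csf1r, the receptor for colony stimulating factor, was at 476, 496, 469.6 and 398 CPM in macrophages and 514, 498, 469.5 and 445 CPM in monocytes. Tumor monocytes were therefore at the macrophage level for Csf1r, so the name monocyte is a call by gate. The monocyte check list (Plac8, Vcan, F13a1, Fn1 and Hp) summed to 4765, 4653, 5373 and 5757 CPM in tumor monocytes and 1070.5, 1003, 1806 and 2365 CPM in macrophages, with all 5 genes detected and Plac8 on top in both.

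The T list (Lck, Cd2 and Lat) reached 1771, 1813, 1559.6 and 1689 CPM in tumor T cells and 45.04, 15.2, 53.5 and 128 CPM in macrophages, with 3 of 3 genes detected in each library. The macrophages of the Aire-/- anti-PD1 library had the highest T list CPM and those of the Aire+/+ anti-PD1 library the lowest. The dendritic list (Ccr7, Itgae, Batf3, Irf8, Dpp4 and Naaa) summed to 3460.1, 3509.9, 4922 and 5372 CPM in tumor dendritic cells, with 6 of 6 genes and Ccr7 on top. Ccr7, a chemokine receptor of migrating dendritic cells, was at 1856, 1976, 3394 and 3743 CPM in tumor dendritic cells and 50.2, 39.2, 0 and 10.05 CPM in splenic ones. Dendritic cells of the 2 tissues thus differed in Ccr7, and the splenic ones had Irf8 on top of the same list. This difference was not tested. Splenic B cells numbered 1393, 1439, 1341 and 1703 and splenic T cells 312, 392, 447 and 497. The B list (Pax5, Ebf1 and Fcmr) was at 1029.8, 1121, 1025 and 950.2 CPM in splenic B cells with 3 of 3 genes and Fcmr on top, and the T list was at 1688, 1624, 1786 and 1855 CPM in splenic T cells with 3 of 3 genes and Lck on top. Splenic monocytes numbered 172, 122, 109 and 66, and their monocyte list summed to 6079, 5617, 5758 and 4319 CPM with 5 of 5 genes and Plac8 on top.

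Among gates with 20 or more cells in each library of a tissue, members took up the largest share of UMIs in tumor macrophages and the smallest in splenic T cells. In tumor macrophages members made up 2.17, 2.41, 2.29 and 1.83% of UMIs, in monocytes 1.97, 2.01, 1.87 and 1.63%, in dendritic cells 0.899, 1.03, 0.922 and 0.881% and in T cells 0.374, 0.279, 0.305 and 0.261%. The macrophage share exceeded the monocyte share in each of the 4 tumor libraries, and the Aire-/- anti-PD1 library was the lowest for both gates. Shares in spleen were 1.62, 1.70, 1.66 and 1.75% for monocytes, 0.362, 0.357, 0.365 and 0.379% for B cells and 0.244, 0.239, 0.249 and 0.258% for T cells. With each cell thinned to 2000 UMIs the median cell held 41, 46, 44 and 35 member UMIs in tumor macrophages and 5, 5, 4 and 5 in tumor T cells.

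**Figure D1:**
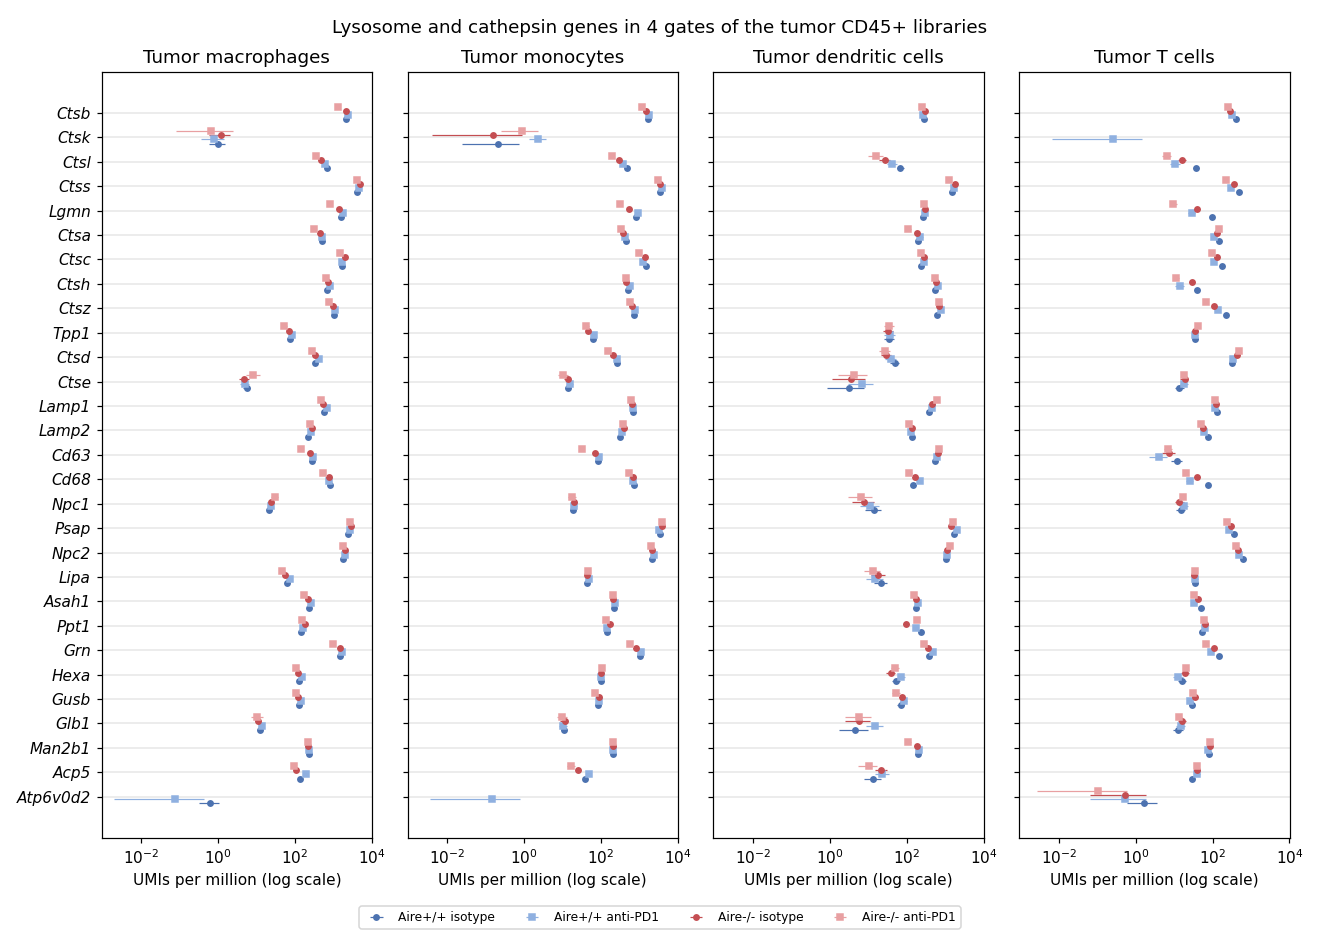
CPM of each member in 4 tumor gates, on a log axis from which zeros are left out. Each point is 1 library of a condition, and bars are exact intervals at 95% that cover counting error only.

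Macrophages were compared with the other 3 tumor gates by edgeR's quasi-likelihood test on UMIs summed per library, with Benjamini-Hochberg adjustment at an FDR of 0.05 and library as block. The 4 libraries are 4 conditions that stand in as replicates of a cell type, so p measures the spread between them, and the 3 comparisons share the macrophage sums. Over monocytes 12 of 27 members tested were higher (background 28% of 10812 genes) and 5 were lower (background 27%), with a median log2 fold of 0.15 beside 0.04 for all genes. TMM scaling shifted the folds over monocytes by -0.20 log2, and library totals alone gave 4859 genes higher and 1805 lower in place of 3024 and 2921, with 20 members higher and 5 lower. Without the block for library 5 of 27 members were higher and 5 lower, near the shares over all genes (2139 and 2099 of 10362). Ctsb, Ctsl, Ctsc, Ctsz, Tpp1, Ctsd and Grn lost their calls there. Ctss, Lipa, Asah1, Hexa and Npc1 gained 1 in 1 or more alternatives. Ctsa, Cd68, Ppt1 and Man2b1 were called higher under library totals alone, with the other sign than in the main fit. The count of higher members over monocytes thus depended on the scaling and on the block, while the count of lower members was the same in all 3 fits.

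Over dendritic cells 22 of 27 members were higher (background 23% of 9362 genes) and 1 was lower (background 22.5%), with a median of 0.99 beside 0.03. Over T cells 24 of 27 were higher (background 31.8% of 11367 genes) and 1 was lower (background 32.2%), with a median of 2.45 beside -0.02. Most members were thus above both cell types in macrophages, a larger share than among all genes tested. TMM moved the folds over T cells by 0.22 log2, and library totals alone gave 2833 genes higher and 4804 lower in place of 3619 and 3661, with the same member counts.

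The cysteine endopeptidases were macrophage and monocyte genes with smaller amounts in dendritic and T cells. Ctss was stable between conditions in macrophages, whereas Ctsb, Ctsl and Lgmn were lowest in the Aire-/- anti-PD1 library. Ctsb, which encodes cathepsin B, was at 2143, 2437, 2196 and 1334 in macrophages and 1704, 1789, 1527 and 1162 CPM in monocytes. Ctsb stood at 282, 273, 297 and 248 in dendritic cells and 398, 328, 292 and 248 CPM in T cells. Ctsb had edgeR log2 folds of 0.17 (SE 0.06, adjusted p = 0.036, higher in 4 of 4 libraries) over monocytes, 2.83 (SE 0.12, adjusted p = 7.4e-08) over dendritic cells and 2.89 (SE 0.12, adjusted p = 1.6e-05) over T cells. Its macrophage level was the higher in each library although the ranges of the 2 gates overlapped. Ctsb was not called over monocytes without the Aire+/+ isotype (0.19), Aire+/+ anti-PD1 (0.14) or Aire-/- isotype library (0.14); also with DESeq2. Ctsl, which encodes cathepsin L, was at 699.8, 630.01, 489 and 351 in macrophages and 497, 389, 303 and 198 CPM in monocytes. Ctsl stood at 69.03, 41.9, 26.9 and 16.1 in dendritic cells and 36.6, 10.8, 16.4 and 6.45 CPM in T cells. Ctsl had edgeR log2 folds of 0.47 (SE 0.06, adjusted p = 4.2e-05, higher in 4 of 4 libraries) over monocytes, 3.87 (SE 0.16, adjusted p = 7.6e-08) over dendritic cells and 5.39 (SE 0.31, adjusted p = 2.1e-05) over T cells. The 4 libraries kept 1 order in macrophages, monocytes and dendritic cells, from Aire+/+ isotype at the top to Aire-/- anti-PD1 at the bottom. Ctss, which encodes the invariant chain protease cathepsin S, was at 4045, 4590.3, 4899 and 4252 in macrophages and 3528, 3853, 3483 and 3095 CPM in monocytes. Ctss stood at 1549.7, 1706, 1795 and 1272 in dendritic cells and 489.9, 299.6, 361 and 228 CPM in T cells. Ctss had edgeR log2 folds of 0.15 (SE 0.06, adjusted p = 0.071, higher in 4 of 4 libraries) over monocytes, 1.48 (SE 0.08, adjusted p = 2.9e-07) over dendritic cells and 3.97 (SE 0.21, adjusted p = 1.8e-05) over T cells. Every macrophage value lay above every monocyte value, and the fold over monocytes, not called here, was called under library totals alone, without the filter on low counts, with thinned cells, without the top 2% of cells, without macrophages with Cd3 or B gene UMIs and with monocytes without C1q UMIs. Lgmn, which encodes the asparaginyl endopeptidase legumain, was at 1592, 1804, 1439.9 and 838 in macrophages and 829.6, 924, 542 and 328 CPM in monocytes. Lgmn stood at 269, 298, 297 and 285 in dendritic cells and 98.4, 28.5, 39.6 and 9.62 CPM in T cells. Lgmn had edgeR log2 folds of 0.96 (SE 0.08, adjusted p = 5.8e-07, higher in 4 of 4 libraries) over monocytes, 2.23 (SE 0.16, adjusted p = 2.3e-06) over dendritic cells and 5.61 (SE 0.44, adjusted p = 5.7e-05) over T cells. Macrophage and monocyte ranges overlapped, T cells were low in all libraries, and the Aire+/+ isotype library had the highest T cell value. Ctsk, which encodes the osteoclast collagenase cathepsin K, had only 19, 10, 11 and 2 UMIs in tumor macrophages and was not tested.

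Shares of cells with a UMI depend on depth, and the medians were 14572, 14628, 14096 and 11362 UMIs per macrophage and 8634, 7758, 9199 and 8410 per T cell of the tumor. Lgmn was found in 98.8, 99.3, 97.3 and 90.5% of macrophages and 18.1, 8.97, 11.9 and 5.91% of tumor T cells. Of the tumor gates compared, T cells had the lowest Lgmn CPM. Thinned to 2000 UMIs per cell, with 0 cells left out, the Lgmn shares were 87.5, 90.7, 84.6 and 69.01% and 7.45, 2.90, 2.99 and 1.83%. Macrophages and T cells stayed far apart at equal depth, and the Aire-/- anti-PD1 library had the lowest share in each gate.

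All exopeptidases but Ctsa were called higher in macrophages than in monocytes, and Ctsa was called so under library totals alone. Ctsh and Ctsz were also high in dendritic cells. Ctsa, which encodes the protective protein cathepsin A, was at 519, 514, 442 and 322 in macrophages and 457, 437, 381 and 333 CPM in monocytes. Ctsa stood at 195, 229.8, 190.3 and 108 in dendritic cells and 149, 109.9, 128 and 146 CPM in T cells. Ctsa had edgeR log2 folds of -0.05 (SE 0.06, adjusted p = 0.49, higher in 3 of 4 libraries; 0.15 and so of the other sign under library totals alone) over monocytes, 1.31 (SE 0.10, adjusted p = 3.2e-06) over dendritic cells and 1.96 (SE 0.17, adjusted p = 8.5e-05) over T cells. Macrophages were above monocytes in all libraries but the Aire-/- anti-PD1 one, and both gates were lowest there. Ctsc, which encodes dipeptidyl peptidase 1, the activator of granule proteases, was at 1744, 1719, 2007 and 1528 in macrophages and 1511, 1299, 1406 and 978 CPM in monocytes. Ctsc stood at 231, 282, 278 and 241 in dendritic cells and 173, 107, 128 and 98.9 CPM in T cells. Ctsc had edgeR log2 folds of 0.24 (SE 0.07, adjusted p = 0.011, higher in 4 of 4 libraries) over monocytes, 2.74 (SE 0.09, adjusted p = 2.9e-08) over dendritic cells and 4.04 (SE 0.15, adjusted p = 1.3e-05) over T cells. The Aire-/- isotype library was highest in macrophages, and macrophages exceeded the monocytes of the same library each time. The call of Ctsc over monocytes was lost without the Aire-/- isotype (0.23) or Aire-/- anti-PD1 library (0.16). Ctsh, which encodes an aminopeptidase, was at 707, 836, 747 and 667 in macrophages and 525, 569, 469 and 459 CPM in monocytes. Ctsh stood at 544, 670.2, 570.1 and 546 in dendritic cells and 39.3, 14.2, 29.9 and 11.3 CPM in T cells. Ctsh had edgeR log2 folds of 0.35 (SE 0.06, adjusted p = 2.3e-04, higher in 4 of 4 libraries) over monocytes, 0.32 (SE 0.07, adjusted p = 0.005) over dendritic cells and 5.34 (SE 0.36, adjusted p = 3.2e-05) over T cells. Dendritic cells were near the monocytes for this gene, and the call over dendritic cells was lost when thinned (0.28). Ctsz, which encodes a carboxypeptidase, was at 1057, 1132, 969 and 776 in macrophages and 746, 805, 640.2 and 563 CPM in monocytes. Ctsz stood at 636, 785, 709 and 679 in dendritic cells and 221, 139, 109 and 67.96 CPM in T cells. Ctsz had edgeR log2 folds of 0.31 (SE 0.05, adjusted p = 3.8e-04, higher in 4 of 4 libraries) over monocytes, 0.46 (SE 0.09, adjusted p = 0.003) over dendritic cells and 3.21 (SE 0.22, adjusted p = 3.2e-05) over T cells. Values in dendritic cells lay within the monocyte range, and T cells were lowest in the Aire-/- anti-PD1 library. Tpp1, which encodes tripeptidyl peptidase 1, was at 76.7, 86.9, 70.5 and 53.7 in macrophages and 62.6, 68.5, 48.02 and 42.3 CPM in monocytes. Tpp1 stood at 35.7, 36.7, 33.2 and 35.9 in dendritic cells and 36.04, 34.8, 34.9 and 41.2 CPM in T cells. Tpp1 had edgeR log2 folds of 0.18 (SE 0.07, adjusted p = 0.035, higher in 4 of 4 libraries) over monocytes, 0.99 (SE 0.13, adjusted p = 1.8e-04) over dendritic cells and 1.17 (SE 0.15, adjusted p = 4.5e-04) over T cells. Dendritic and T cells were close to each other and below all macrophage values. Tpp1 was not called over monocytes without the Aire+/+ anti-PD1 (0.18) or Aire-/- isotype library (0.13); also with DESeq2.

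The 2 aspartic cathepsins were not called higher in macrophages than in T cells, and neither was Glb1. Ctsd, which encodes cathepsin D, was at 338, 423, 338 and 277 in macrophages and 259, 271, 209 and 158 CPM in monocytes. Ctsd stood at 48.9, 38.4, 29.7 and 27.1 in dendritic cells and 317, 335, 443 and 499 CPM in T cells. Ctsd had edgeR log2 folds of 0.42 (SE 0.07, adjusted p = 1.9e-04, higher in 4 of 4 libraries) over monocytes, 3.24 (SE 0.14, adjusted p = 7.6e-08) over dendritic cells and 0.02 (SE 0.19, adjusted p = 0.93) over T cells. T cells reached the macrophage level, with the Aire-/- libraries above the Aire+/+ libraries in T cells, and dendritic cells were far lower. Ctse, which encodes the endosomal aspartic protease cathepsin E, was at 5.63, 5.03, 4.83 and 8.44 in macrophages and 13.99, 15.8, 13.8 and 10.6 CPM in monocytes. Ctse stood at 3.10, 6.99, 3.54 and 4.40 in dendritic cells and 13.8, 18.4, 18.8 and 18.1 CPM in T cells. Ctse had edgeR log2 folds of -1.52 (SE 0.18, adjusted p = 1.3e-05, higher in 0 of 4 libraries) over monocytes, 0.38 (SE 0.35, adjusted p = 0.41) over dendritic cells and -1.35 (SE 0.19, adjusted p = 7.3e-04) over T cells. Macrophages were below monocytes and T cells in each library, although the Aire-/- anti-PD1 values of macrophages and monocytes lay close.

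Membrane proteins did not share 1 pattern: Lamp1 and Lamp2 were higher in monocytes, Cd63 was highest in dendritic cells, and Cd68 was level between macrophages and monocytes. Lamp1, an abundant glycoprotein of the lysosomal membrane, was at 595, 674, 539 and 471 in macrophages and 709, 709, 662 and 631 CPM in monocytes. Lamp1 stood at 375, 451, 472 and 600.1 in dendritic cells and 127, 113, 125 and 116 CPM in T cells. Lamp1 had edgeR log2 folds of -0.46 (SE 0.07, adjusted p = 7.5e-05, higher in 0 of 4 libraries) over monocytes, 0.25 (SE 0.15, adjusted p = 0.21) over dendritic cells and 2.45 (SE 0.12, adjusted p = 1.6e-05) over T cells. Monocytes exceeded macrophages in every library, and the dendritic value of the Aire-/- anti-PD1 library was above its macrophage value. Lamp2, which serves chaperone-mediated autophagy, was at 222, 269, 275 and 257 in macrophages and 319, 355, 397 and 378 CPM in monocytes. Lamp2 stood at 140.4, 128, 137 and 112 in dendritic cells and 77.5, 58.5, 55.8 and 50.9 CPM in T cells. Lamp2 had edgeR log2 folds of -0.70 (SE 0.06, adjusted p = 5.3e-07, higher in 0 of 4 libraries) over monocytes, 0.96 (SE 0.11, adjusted p = 5.1e-05) over dendritic cells and 2.31 (SE 0.16, adjusted p = 3.7e-05) over T cells. The lowest monocyte value was above the highest macrophage value. Cd63, a tetraspanin of late endosomes and exosomes, was at 287, 303, 247 and 146 in macrophages and 85.5, 93.03, 69.8 and 31.9 CPM in monocytes. Cd63 stood at 544, 631, 658 and 703 in dendritic cells and 11.7, 3.95, 7.40 and 6.98 CPM in T cells. Cd63 had edgeR log2 folds of 1.63 (SE 0.07, adjusted p = 3.6e-09, higher in 4 of 4 libraries) over monocytes, -1.42 (SE 0.19, adjusted p = 1.6e-04) over dendritic cells and 5.20 (SE 0.28, adjusted p = 1.8e-05) over T cells. Dendritic values were above all macrophage values, macrophages above all monocyte values, and T cells were low. Cd68, which encodes macrosialin, was at 841, 802, 766 and 545 in macrophages and 743, 711, 677 and 540.3 CPM in monocytes. Cd68 stood at 148, 224, 168 and 119 in dendritic cells and 78.04, 25.3, 39.1 and 20.3 CPM in T cells. Cd68 had edgeR log2 folds of -0.07 (SE 0.06, adjusted p = 0.35, higher in 4 of 4 libraries; 0.14 and so of the other sign under library totals alone) over monocytes, 2.16 (SE 0.11, adjusted p = 3.1e-07) over dendritic cells and 4.58 (SE 0.28, adjusted p = 2.4e-05) over T cells. Macrophage and monocyte values of the Aire-/- anti-PD1 library were almost equal, and the gates overlapped. Under library totals alone Cd68 was called higher in macrophages than in monocytes. Npc1, a cholesterol exporter of the lysosomal membrane, was at 21.4, 23.8, 24.6 and 30.7 in macrophages and 18.7, 20.8, 20.01 and 18.05 CPM in monocytes. Npc1 stood at 13.96, 11.4, 7.78 and 6.60 in dendritic cells and 14.9, 17.7, 13.7 and 16.9 CPM in T cells. Npc1 had edgeR log2 folds of 0.11 (SE 0.10, adjusted p = 0.35, higher in 4 of 4 libraries) over monocytes, 1.31 (SE 0.24, adjusted p = 0.0016) over dendritic cells and 0.88 (SE 0.12, adjusted p = 7.0e-04) over T cells. All gates were low for this gene, and its call over T cells was lost with thinned cells.

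Of the genes for lipid handling, Psap and Npc2 were higher in monocytes and Grn was higher in macrophages. Psap, which encodes the precursor of the saposins, was at 2408, 2722, 2874 and 2678 in macrophages and 3572, 3374, 3924 and 3958 CPM in monocytes. Psap stood at 1723, 2092, 1439 and 1637 in dendritic cells and 363, 272, 294 and 239 CPM in T cells. Psap had edgeR log2 folds of -0.68 (SE 0.06, adjusted p = 2.4e-06, higher in 0 of 4 libraries) over monocytes, 0.62 (SE 0.10, adjusted p = 4.9e-04) over dendritic cells and 3.43 (SE 0.15, adjusted p = 1.6e-05) over T cells. Macrophage values were close between conditions, and each monocyte value was above the macrophage value of its library. Npc2, which encodes a soluble cholesterol carrier, was at 1789, 2086, 2075 and 1825 in macrophages and 2174, 2391, 2213 and 2056 CPM in monocytes. Npc2 stood at 1037, 1153, 1135 and 1309 in dendritic cells and 636, 482, 466 and 398 CPM in T cells. Npc2 had edgeR log2 folds of -0.39 (SE 0.06, adjusted p = 8.8e-05, higher in 0 of 4 libraries) over monocytes, 0.73 (SE 0.08, adjusted p = 5.8e-05) over dendritic cells and 2.21 (SE 0.14, adjusted p = 2.8e-05) over T cells. T cells held more of this gene in the Aire+/+ isotype library than in the other 3. Lipa, which encodes the acid lipase, was at 61.7, 75.5, 56.9 and 45.9 in macrophages and 43.95, 48.4, 45.1 and 46.7 CPM in monocytes. Lipa stood at 21.7, 14.9, 18.4 and 13.2 in dendritic cells and 35.2, 34.8, 33.3 and 35.5 CPM in T cells. Lipa had edgeR log2 folds of 0.20 (SE 0.09, adjusted p = 0.086, higher in 3 of 4 libraries) over monocytes, 1.77 (SE 0.16, adjusted p = 1.2e-05) over dendritic cells and 0.99 (SE 0.12, adjusted p = 4.0e-04) over T cells. Macrophage and monocyte values were close in the Aire-/- anti-PD1 library. Asah1, which encodes acid ceramidase, was at 238, 269, 225 and 179.6 in macrophages and 229, 238, 211 and 208 CPM in monocytes. Asah1 stood at 172, 193, 175 and 153 in dendritic cells and 50.9, 32.9, 41.2 and 33.3 CPM in T cells. Asah1 had edgeR log2 folds of -0.16 (SE 0.07, adjusted p = 0.055, higher in 3 of 4 libraries) over monocytes, 0.37 (SE 0.09, adjusted p = 0.0081) over dendritic cells and 2.75 (SE 0.15, adjusted p = 1.8e-05) over T cells. Dendritic cells came near the monocytes and T cells were low. Ppt1, which encodes a palmitoyl thioesterase, was at 149, 168, 184 and 158 in macrophages and 142, 145, 172 and 140.4 CPM in monocytes. Ppt1 stood at 234, 176, 94.8 and 189 in dendritic cells and 52.03, 62.2, 64.8 and 60.6 CPM in T cells. Ppt1 had edgeR log2 folds of -0.07 (SE 0.06, adjusted p = 0.31, higher in 4 of 4 libraries; 0.13 and so of the other sign under library totals alone) over monocytes, -0.05 (SE 0.21, adjusted p = 0.86) over dendritic cells and 1.68 (SE 0.08, adjusted p = 1.6e-05) over T cells. Dendritic values were the most spread, with the Aire+/+ isotype library high and the Aire-/- isotype library low. With thinned cells the fold of Ppt1 over dendritic cells had the other sign and was called (0.65). Under library totals alone Ppt1 was called higher in macrophages than in monocytes. Grn, which encodes progranulin, was at 1541, 1743, 1463 and 1019 in macrophages and 1059.5, 1102, 816 and 578 CPM in monocytes. Grn stood at 380.1, 485, 358 and 283 in dendritic cells and 145, 92.2, 111 and 65.8 CPM in T cells. Grn had edgeR log2 folds of 0.51 (SE 0.06, adjusted p = 1.9e-05, higher in 4 of 4 libraries) over monocytes, 1.92 (SE 0.08, adjusted p = 7.4e-08) over dendritic cells and 4.05 (SE 0.16, adjusted p = 1.3e-05) over T cells. In macrophages, monocytes, dendritic cells and T cells alike the Aire-/- anti-PD1 library was the lowest.

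The glycosidases differed little between macrophages and monocytes, with Gusb the 1 that was called. Under library totals alone Hexa and Man2b1 were called higher in macrophages too. Hexa, which encodes the alpha subunit of hexosaminidase, was at 131, 155, 123 and 110.04 in macrophages and 102, 101, 101 and 111 CPM in monocytes. Hexa stood at 54.3, 73.4, 38.9 and 49.9 in dendritic cells and 16.3, 12.9, 19.03 and 20.4 CPM in T cells. Hexa had edgeR log2 folds of 0.13 (SE 0.08, adjusted p = 0.21, higher in 3 of 4 libraries) over monocytes, 1.26 (SE 0.12, adjusted p = 1.6e-05) over dendritic cells and 3.12 (SE 0.18, adjusted p = 2.1e-05) over T cells. Monocytes were level across conditions, and macrophages were above them in all but the Aire-/- anti-PD1 library. Gusb, which encodes beta-glucuronidase, was at 132, 145, 123 and 105 in macrophages and 84.8, 91.1, 88.7 and 71.03 CPM in monocytes. Gusb stood at 69.8, 83.9, 77.1 and 52.1 in dendritic cells and 29.3, 26.1, 35.7 and 31.4 CPM in T cells. Gusb had edgeR log2 folds of 0.39 (SE 0.06, adjusted p = 1.8e-04, higher in 4 of 4 libraries) over monocytes, 0.82 (SE 0.10, adjusted p = 1.2e-04) over dendritic cells and 2.26 (SE 0.14, adjusted p = 2.4e-05) over T cells. Every macrophage value lay above every monocyte value. Glb1, which encodes beta-galactosidase, was at 12.2, 13.9, 11.3 and 10.5 in macrophages and 11.4, 10.6, 11.5 and 9.95 CPM in monocytes. Glb1 stood at 4.65, 14.9, 5.66 and 5.87 in dendritic cells and 12.5, 14.8, 16.1 and 13.7 CPM in T cells. Glb1 had edgeR log2 folds of -0.06 (SE 0.12, adjusted p = 0.72, higher in 3 of 4 libraries) over monocytes, 0.66 (SE 0.28, adjusted p = 0.086) over dendritic cells and -0.03 (SE 0.13, adjusted p = 0.91) over T cells. This gene was low in each gate, T cells included. Man2b1, which encodes lysosomal alpha-mannosidase, was at 235, 237, 228 and 226 in macrophages and 204, 205, 209 and 210.1 CPM in monocytes. Man2b1 stood at 193, 211, 182 and 110.04 in dendritic cells and 81.8, 74.6, 84.04 and 84.8 CPM in T cells. Man2b1 had edgeR log2 folds of -0.04 (SE 0.06, adjusted p = 0.55, higher in 4 of 4 libraries; 0.16 and so of the other sign under library totals alone) over monocytes, 0.42 (SE 0.14, adjusted p = 0.031) over dendritic cells and 1.73 (SE 0.09, adjusted p = 1.8e-05) over T cells. Values hardly differed between conditions in macrophages, and the lowest dendritic value came from the Aire-/- anti-PD1 library. Man2b1 was not called over dendritic cells without the Aire+/+ isotype (0.47), Aire-/- isotype (0.45) or Aire-/- anti-PD1 library (0.22); also without the block, with thinned cells or without macrophages with Cd3 or B gene UMIs.

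The osteoclast-associated members went separate ways, since Acp5 had the largest called fold over monocytes and Atp6v0d2 was almost absent. Acp5, which encodes tartrate-resistant acid phosphatase, was at 135, 195, 109 and 96.2 in macrophages and 38.7, 49.01, 26.3 and 16.9 CPM in monocytes. Acp5 stood at 13.2, 23.6, 21.9 and 10.3 in dendritic cells and 29.8, 39.8, 39.1 and 39.6 CPM in T cells. Acp5 had edgeR log2 folds of 1.82 (SE 0.09, adjusted p = 5.6e-09, higher in 4 of 4 libraries) over monocytes, 2.92 (SE 0.17, adjusted p = 6.4e-07) over dendritic cells and 2.03 (SE 0.18, adjusted p = 1.0e-04) over T cells. Macrophages were above the other 3 gates in every library, and the Aire+/+ anti-PD1 library was the highest. Atp6v0d2, a proton pump subunit, had 12, 1, 0 and 0 UMIs in tumor macrophages and was not tested there. An osteoclast list (Calcr, Oscar, Ocstamp, Dcstamp and Mmp9) summed to 15.7, 17.6, 26.3 and 26.3 CPM in macrophages, with 3 of 5 genes detected, Ocstamp on top and Calcr and Oscar at 0, and its part in the result was not tested.

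A list of 71 other lysosome genes was read the same way. Over monocytes 16 of 70 were higher (background 28%) and 23 lower (background 27%), median -0.05. Over dendritic cells 33 of 70 were higher (background 23%) and 11 lower (background 22.5%), median 0.42. Over T cells 57 of 69 were higher (background 31.8%) and 7 lower (background 32.2%), median 1.25. The largest edgeR log2 folds over monocytes were Naglu 0.95, Dpp7 0.85 and Dnase2a 0.85 on the higher side and Sort1 -3.38, Tfec -1.61 and Cd164 -0.93 on the lower side. Naglu, which degrades heparan sulfate, led the macrophage side, and the sorting receptor Sort1 led the monocyte side. Over dendritic cells the largest were Slc11a1 5.49, Tfec 5.42 and Gpnmb 5.08, and on the lower side Laptm4b -4.33, Sort1 -3.30 and Cst3 -3.25. Over T cells they were Slc11a1 4.59, Plbd1 4.502 and Mitf 4.23, and on the lower side Arsb -2.46, Smpd1 -2.35 and Abca2 -2.16.

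Conditions were compared by ratios of CPM between single tumor libraries, without a test, and a member was counted where it differed at least 1.5-fold with 100 or more UMIs over the pair. Intervals on these ratios are exact at 95% and cover counting error only, so differences between mice or preparations are not in them. In macrophages under isotype 0 of 27 members were higher in Aire-/- than in Aire+/+ (background 4.3% of 9076 genes) and 0 were lower (background 3.27%), with a median log2 ratio of -0.10 beside -0.04 for all genes. Under anti-PD1 10 of 26 members were lower in Aire-/- (background 9.63% of 7974 genes) and 0 were higher (background 6.38%), with a median of -0.53 beside -0.07. Of the 4 libraries, Aire-/- anti-PD1 macrophages had the highest T, monocyte and dendritic lists (dendritic 382, 351, 579.9 and 646 CPM) and the lowest macrophage list and C1q (11057, 12041, 9900.1 and 7419 CPM). Their part in the ratios with this library was not tested. Without macrophages that had 2 or more UMIs of Cd3 or B gate genes, 10 members were lower for genotype under anti-PD1. The background of 9.63% belongs to the full gate, and this choice did not use the monocyte list, the dendritic list or C1q. The members past the rule took in cysteine, serine and aspartic cathepsins, legumain, progranulin, Acp5 and Cd63, while the glycosidases were not among them. Anti-PD1 over isotype in Aire+/+ gave 0 of 27 members higher (background 1.15% of 9231 genes) and 0 lower (background 1.43%), median 0.18 beside -0.02. The same treatment ratio in Aire-/- gave 0 of 26 higher (background 3.16% of 7369 genes) and 3 lower (background 4.99%), median -0.26 beside -0.05. The 4 ratios share libraries in pairs, so the Aire-/- anti-PD1 library enters 2 of them.

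Macrophage ratios of Aire-/- over Aire+/+ under anti-PD1 are given first, with the Aire-/- CPM before the Aire+/+ CPM and the interval in brackets. Lgmn was at 838 against 1804 CPM, a log2 ratio of -1.11 (-1.17 to -1.05). Cd63 was at 146 against 303 CPM, a log2 ratio of -1.05 (-1.19 to -0.90). These were the 2 lowest ratios among the members, followed by the acid phosphatase and 2 cysteine cathepsins. Acp5 was at 96.2 against 195 CPM, a log2 ratio of -1.02 (-1.20 to -0.84). Ctsb was at 1334 against 2437 CPM, a log2 ratio of -0.87 (-0.92 to -0.82). Ctsl was at 351 against 630.01 CPM, a log2 ratio of -0.84 (-0.94 to -0.75). The remaining members past the rule lay nearer to it. Grn was at 1019 against 1743 CPM, a log2 ratio of -0.77 (-0.83 to -0.72). Lipa was at 45.9 against 75.5 CPM, a log2 ratio of -0.72 (-0.99 to -0.46). Tpp1 was at 53.7 against 86.9 CPM, a log2 ratio of -0.69 (-0.94 to -0.45). Cathepsins A and D came last. Ctsa was at 322 against 514 CPM, a log2 ratio of -0.68 (-0.78 to -0.58). Ctsd was at 277 against 423 CPM, a log2 ratio of -0.61 (-0.71 to -0.50). Ctsd fell short of the rule with centred ratios (-0.53) or the mean CPM of cells (-0.54), and Tpp1 with thinned cells (-0.48). Ctss and Psap were not among them, with ratios of -0.11 (-0.14 to -0.08) for Ctss and -0.02 (-0.06 to 0.01) for Psap. With anti-PD1 over isotype in Aire-/- macrophages, Lgmn had a log2 ratio of -0.78 (-0.84 to -0.72), Cd63 -0.76 (-0.91 to -0.61), short of the rule with thinned cells (-0.45), and Ctsb -0.72 (-0.77 to -0.67).

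**Figure D2:**
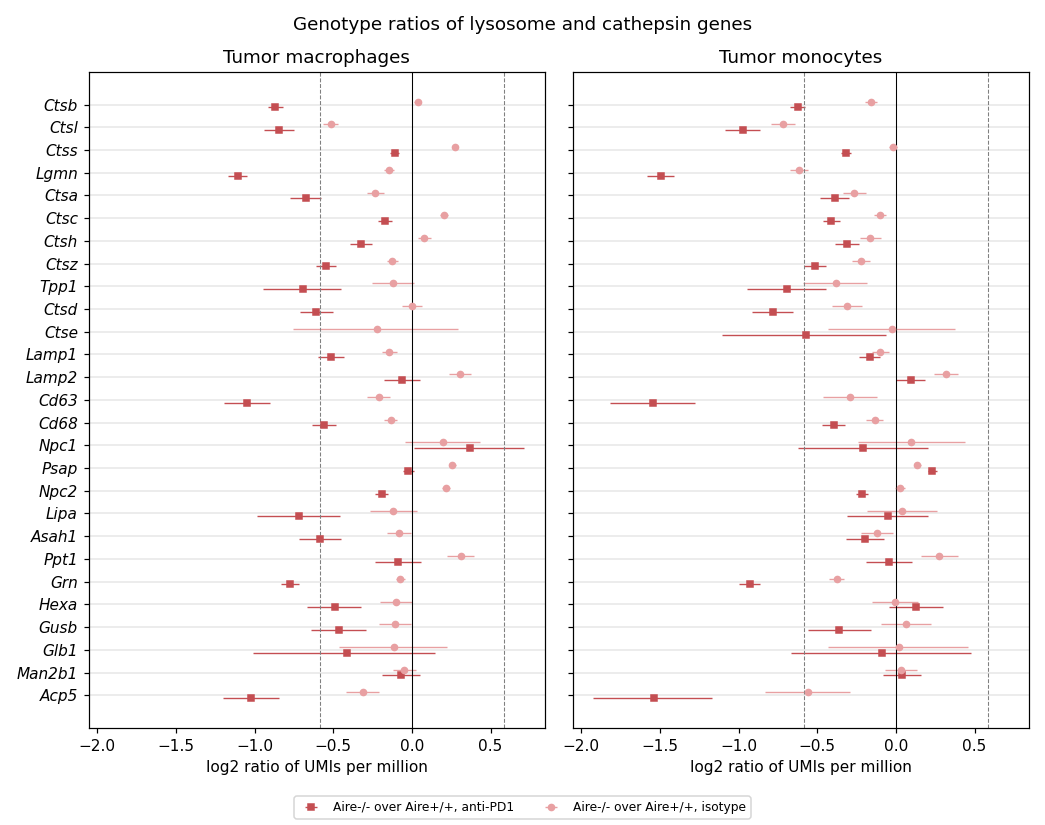
Log2 ratio of CPM, Aire-/- over Aire+/+, of members with 100 or more UMIs in tumor macrophages and monocytes under isotype and under anti-PD1. Bars are exact intervals at 95% and cover counting error only, with 1 library per condition.

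Other genes that mark macrophage states differed between the same libraries. Cxcl9, an interferon-induced chemokine, was at 177, 338, 569 and 850.3 CPM. Spp1, which encodes osteopontin, was at 933, 543, 496 and 104 CPM, Nos2, the inducible nitric oxide synthase, at 19.5, 17.8, 34.9 and 117 CPM, and Trem2, a lipid receptor, at 344, 337, 226 and 192 CPM. Spp1 and Trem2 were lowest and Cxcl9 and Nos2 highest in the Aire-/- anti-PD1 library. With macrophages gated on C1q CPM, a choice made after the data were seen, 7 members were past the rule on the lower side for Aire-/- over Aire+/+ under anti-PD1, without Ctsl, Ctsa and Tpp1. The background of 9.63% for this ratio belongs to the gate on C1q UMIs.

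In tumor monocytes, too, members past the rule were on the lower side only. Under isotype 2 of 27 members were lower in Aire-/- monocytes (background 4.81% of 7339 genes) and 0 higher (background 3.26%), median -0.10 beside -0.06. Under anti-PD1 8 of 27 were lower (background 8.22% of 6595 genes) and 0 higher (background 4.58%), median -0.36 beside -0.06. The macrophage list was lower and the monocyte list higher in Aire-/- than in Aire+/+ monocytes under both treatments, and their part was not tested. Lgmn and Ctsl were past the rule under both treatments, but Lgmn under isotype not with centred ratios (-0.56), the mean CPM of cells (-0.56) or thinned cells (-0.45). Anti-PD1 over isotype in Aire+/+ monocytes gave 0 of 27 higher (background 1.35% of 7454 genes) and 0 lower (background 1.22%), median 0.07 beside -0.01. The same ratio in Aire-/- gave 0 of 27 higher (background 1.85% of 6362 genes) and 4 lower (background 2.77%), median -0.19 beside -0.03. Under isotype the log2 ratio was -0.72 (-0.79 to -0.64) for Ctsl and -0.62 (-0.67 to -0.56) for Lgmn. Ratios under anti-PD1 in monocytes follow. Cd63 stood at 31.9 against 93.03 CPM in monocytes, a log2 ratio of -1.54 (-1.82 to -1.28). Acp5 stood at 16.9 against 49.01 CPM in monocytes, a log2 ratio of -1.54 (-1.92 to -1.17). Lgmn stood at 328 against 924 CPM in monocytes, a log2 ratio of -1.50 (-1.58 to -1.41). Those 3 were more than 2-fold apart, and the other 5 less. Ctsl stood at 198 against 389 CPM in monocytes, a log2 ratio of -0.97 (-1.09 to -0.86). Grn stood at 578 against 1102 CPM in monocytes, a log2 ratio of -0.93 (-0.996 to -0.86). Ctsd stood at 158 against 271 CPM in monocytes, a log2 ratio of -0.78 (-0.91 to -0.66). Tpp1 and Ctsb were nearest to the rule. Tpp1 had a log2 ratio of -0.69 (-0.95 to -0.44) and Ctsb of -0.62 (-0.67 to -0.58), and both fell short of it with thinned cells, Ctsb also with centred ratios. With anti-PD1 over isotype in Aire-/- monocytes the log2 ratio was -1.13 (-1.42 to -0.85) for Cd63, -0.72 (-0.81 to -0.63) for Lgmn, -0.64 (-1.05 to -0.23) for Acp5 and -0.61 (-0.73 to -0.50) for Ctsl, the last 2 short of the rule with thinned cells.

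Dendritic cells were few, and fewer members reached 100 UMIs in them. Under isotype 3 of 21 members were lower in Aire-/- dendritic cells (background 4.07% of 3265 genes) and 0 higher (background 6.49%), median 0.07 beside 0.03. Under anti-PD1 5 of 19 were lower (background 7.11% of 3079 genes) and 0 higher (background 7.15%), median -0.30 beside 0.00. Under both treatments Ccr7 was higher in Aire-/- than in Aire+/+ dendritic cells, the macrophage list was at 126, 112, 110.3 and 44.01 CPM, and their part was not tested. Members past the rule for genotype were thus on the lower side. Anti-PD1 over isotype in Aire+/+ dendritic cells gave 1 of 21 higher (background 2.95% of 3049 genes) and 1 lower (background 2.39%), median 0.21 beside 0.01. In Aire-/- it gave 1 of 19 higher (background 2.51% of 3301 genes) and 2 lower (background 4.24%), median -0.20 beside -0.02. Under isotype the genotype log2 ratio was -1.36 (-1.95 to -0.80) for Ctsl, -1.31 (-1.61 to -1.01) for Ppt1 and -0.72 (-1.32 to -0.13) for Ctsd, which was -0.27 with the mean CPM of cells and with thinned cells had the other sign (0.82). Proteases and a thioesterase made up that set, while under anti-PD1 a serine carboxypeptidase and 2 glycosidases were in it. Under anti-PD1 it was -1.09 (-1.39 to -0.79) for Ctsa, -0.94 (-1.25 to -0.64) for Man2b1, -0.91 (-1.21 to -0.62) for Cd68, -0.78 (-0.97 to -0.59) for Grn and -0.69 (-1.15 to -0.23) for Gusb. Anti-PD1 over isotype was -0.72 (-1.26 to -0.20) for Ctsl and 0.59 (0.32 to 0.87) for Cd68 in Aire+/+. Both fell short of the rule with the mean CPM of cells (-0.30 and 0.46) or thinned cells (-0.24 and 0.35), and Cd68 without the top 2% of cells (0.55). In Aire-/- it was -0.82 (-1.12 to -0.52) for Ctsa, -0.72 (-1.02 to -0.43) for Man2b1 and 0.99 (0.69 to 1.30) for Ppt1. With thinned cells Ctsa fell short in both of its ratios and Man2b1 in this one.

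Of the other lysosome genes, Gpnmb, a melanosomal glycoprotein of phagocytes, had the lowest genotype ratios in macrophages and, under anti-PD1, in monocytes, and up to 2 genes per direction are given here with their log2 ratios. Gpnmb was at 20.4, 20.4, 11.4 and 4.39 CPM in tumor macrophages and 8.66, 31.5, 5.76 and 2.31 CPM in tumor monocytes. For Aire-/- over Aire+/+ in macrophages under isotype, 2 of 69 were lower (Gpnmb -0.84 and Manba -0.67) and 0 higher. In macrophages under anti-PD1 13 of 66 were lower (Gpnmb -2.22 and Ctns -1.03) and 1 higher (Igf2r 0.94). Gpnmb was thus lowest in the Aire-/- anti-PD1 library in both gates. For anti-PD1 over isotype in macrophages of Aire+/+ 0 of 69 were lower and 0 higher. In macrophages of Aire-/- 3 of 63 were lower (Gpnmb -1.37 and Ctns -1.06) and 1 higher (Igf2r 0.59). Over all genes in macrophages 3.27% were lower and 4.3% higher for genotype under isotype, and 9.63% and 6.38% under anti-PD1. For treatment 1.43% were lower and 1.15% higher in Aire+/+, and 4.99% and 3.16% in Aire-/-. The count of lower genes in Aire-/- macrophages was thus near the share over all genes. For genotype in monocytes under isotype 2 of 64 were lower (Ctns -0.63 and Gpnmb -0.59) and 1 higher (Ids 0.71). Over all genes in monocytes 4.81% were lower and 3.26% higher under isotype, and 8.22% and 4.58% under anti-PD1. Under anti-PD1 in monocytes 8 of 59 were lower (Gpnmb -3.77 and Dnase2a -0.92) and 2 higher (Sort1 0.87 and Ids 0.63). With anti-PD1 over isotype in Aire+/+ monocytes 0 of 67 were lower and 2 higher (Gpnmb 1.86 and Galc 0.63). In Aire-/- monocytes 0 of 58 were lower and 1 higher (Sort1 1.02). For treatment over all genes in monocytes 1.22% were lower and 1.35% higher in Aire+/+, and 2.77% and 1.85% in Aire-/-. In dendritic cells 1 of 35 were lower and 2 higher for genotype under isotype, and 5 of 35 lower and 2 higher under anti-PD1. For treatment 1 gene per genotype was past the rule. Over all genes in dendritic cells 4.07% were lower and 6.49% higher for genotype under isotype, and 7.11% and 7.15% under anti-PD1. For treatment the shares were 2.39% and 2.95% in Aire+/+, and 4.24% and 2.51% in Aire-/-.

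Monocytes were compared between tumor and spleen with condition as block, and whether both tissues came from the same mice was not given in the sources used here. In tumor 15 of 27 members were higher (background 27.8% of 9606 genes) and 5 were lower (background 23.7%), with a median log2 fold of 0.47 beside -0.03. TMM moved these folds by 0.43 log2, and library totals alone gave 1583 genes higher and 4532 lower in place of 2673 and 2275, with 11 members higher and 11 lower. DESeq2 gave 2232 genes higher and 1601 lower, with 14 members higher and 3 lower. The balance of higher and lower members between tissues thus depended on the scaling. Genes that the gate itself uses differed in level, and Treml4, a marker of patrolling monocytes, was at 36.6, 35.95, 35.5 and 36.8 CPM in tumor and 202, 205, 243 and 274 CPM in spleen. Ly6c2, a marker of classical monocytes, was at 2197, 3279.7, 2659 and 2846 CPM in tumor and 1356, 1418, 1292 and 955 CPM in spleen. Treml4 was higher in each splenic library and Ly6c2 in each tumor library. The macrophage list in splenic monocytes was at 1723, 2281, 2495 and 2628 CPM, with Apoe on top and 5 or 6 of 6 genes detected, and its part in the result was not tested.

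Cysteine cathepsins and legumain were higher in tumor monocytes. Ctsl was at 41.4 to 60.2 in splenic and 198 to 497 CPM in tumor monocytes (edgeR log2 fold 3.20, SE 0.13, adjusted p = 4.4e-13). For Lgmn spleen gave 114 to 144 and tumor 328 to 924 CPM (edgeR log2 fold 2.73, SE 0.17, adjusted p = 2.2e-10). Both lay far above spleen in every tumor library. Ctss was at 2015 to 2214 in splenic and 3095 to 3853 CPM in tumor monocytes (edgeR log2 fold 1.14, SE 0.08, adjusted p = 1.5e-09). For Ctsb spleen gave 1489 to 1794 and tumor 1162 to 1789 CPM (edgeR log2 fold 0.37, SE 0.11, adjusted p = 0.0078; -0.06 and so of the other sign under library totals alone). Ctsb lost its call without the Aire+/+ isotype (0.28), the Aire+/+ anti-PD1 (0.30) or the Aire-/- isotype library (0.32); also with DESeq2 or with thinned cells. The tumor and spleen values of Ctsb overlapped, and those of Ctss did not. Ctsc was at 372 to 603 in splenic and 978 to 1511 CPM in tumor monocytes (edgeR log2 fold 1.85, SE 0.12, adjusted p = 2.3e-10). For Ctsh spleen gave 442 to 498 and tumor 459 to 569 CPM (edgeR log2 fold 0.54, SE 0.09, adjusted p = 7.7e-05). Ctsz was at 456 to 493 in splenic and 563 to 805 CPM in tumor monocytes (edgeR log2 fold 0.96, SE 0.10, adjusted p = 2.0e-07). These exopeptidases were higher in tumor, with overlap between the tissues for Ctsh. For Ctsa spleen gave 527 to 625 and tumor 333 to 457 CPM (edgeR log2 fold -0.06, SE 0.09, adjusted p = 0.63). All its splenic values lay above those of tumor, and it was called lower under library totals alone (-0.48). For Tpp1 spleen gave 40.3 to 60.8 and tumor 42.3 to 68.5 CPM (edgeR log2 fold 0.57, SE 0.14, adjusted p = 0.0028). Under library totals alone Ctsh (0.12) and Tpp1 (0.15) lost their calls. Ctsd was at 114 to 147 in splenic and 158 to 271 CPM in tumor monocytes (edgeR log2 fold 1.16, SE 0.11, adjusted p = 9.8e-08).

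Membrane genes with a call were on the tumor side, and lipid genes on both. For Lamp2 spleen gave 237 to 278 and tumor 319 to 397 CPM (edgeR log2 fold 0.87, SE 0.11, adjusted p = 2.0e-06). Cd68 was at 486 to 535 in splenic and 540.3 to 743 CPM in tumor monocytes (edgeR log2 fold 0.81, SE 0.10, adjusted p = 1.5e-06). Tumor was the higher for both. For Lamp1 spleen gave 941 to 1081 and tumor 631 to 709 CPM (edgeR log2 fold -0.17, SE 0.09, adjusted p = 0.11). Spleen was the higher for Lamp1, which was called under library totals alone (-0.59) or without the block (-0.19). Cd63 had 0, 0, 2 and 0 UMIs in splenic monocytes and 819, 634, 436 and 138 in tumor monocytes, a ratio of summed CPM of 147 (95% interval 40.6 to 1214, counting error only; edgeR adjusted p = 8.0e-12, higher in 4 of 4 conditions). Npc2 was at 1186 to 1374 in splenic and 2056 to 2391 CPM in tumor monocytes (edgeR log2 fold 1.23, SE 0.08, adjusted p = 4.1e-10). For Grn spleen gave 465 to 561 and tumor 578 to 1102 CPM (edgeR log2 fold 1.19, SE 0.11, adjusted p = 4.0e-08). Cd63 was thus all but absent from splenic monocytes. Ppt1 was at 122 to 162 in splenic and 140.4 to 172 CPM in tumor monocytes (edgeR log2 fold 0.47, SE 0.12, adjusted p = 0.0027). Ppt1 was not called under library totals alone (0.05) or with thinned cells (0.26). For Psap spleen gave 5352 to 6231 and tumor 3374 to 3958 CPM (edgeR log2 fold -0.22, SE 0.08, adjusted p = 0.024). Lipa was at 107 to 158 in splenic and 43.95 to 48.4 CPM in tumor monocytes (edgeR log2 fold -1.05, SE 0.11, adjusted p = 4.6e-07). Psap and Lipa were the lipid genes on the splenic side. The call of Psap was lost without the Aire+/+ isotype (-0.23) or the Aire+/+ anti-PD1 library (-0.17); also with DESeq2, without the filter on low counts, with thinned cells or without the top 2% of cells.

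For Hexa spleen gave 221 to 261 and tumor 101 to 111 CPM (edgeR log2 fold -0.77, SE 0.10, adjusted p = 5.0e-06). Man2b1 was at 367 to 424 in splenic and 204 to 210.1 CPM in tumor monocytes (edgeR log2 fold -0.52, SE 0.09, adjusted p = 1.7e-04). For Ctse spleen gave 22.3 to 32.4 and tumor 10.6 to 15.8 CPM (edgeR log2 fold -0.56, SE 0.18, adjusted p = 0.014). Ctse was not called without the Aire+/+ anti-PD1 library (-0.53); also with DESeq2 or with thinned cells. Glycosidases with a call were thus on the splenic side. Of the members without a call, Asah1 (0.08) and Gusb (0.10) had the other sign under library totals alone and were called lower (-0.34 and -0.32). Npc1 (-0.25) and Glb1 (-0.17) were called lower there too (-0.66 and -0.58). Of the other lysosome genes 32 of 70 were higher in tumor (background 27.8%) and 15 lower (background 23.7%), median 0.21. They were led by Gpnmb 3.68, Gla 3.64 and Cstb 2.61 in tumor and by Sort1 -2.11, Sgsh -2.09 and Abca2 -1.24 in spleen. Splenic dendritic cells numbered 25, 12, 10 and 9, too few for the planned test at a minimum of 20 cells per library.

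In spleen, B cells held more of most members than T cells did, and 6 members went the other way. Of 27 members tested 18 were higher in B cells (background 25.8% of 10697 genes) and 6 lower (background 27.6%), with a median log2 fold of 0.46 beside 0.01. Ctss was at 597 to 660.3 in B cells and 139 to 168 CPM in T cells (edgeR log2 fold 2.05, SE 0.05, adjusted p = 7.7e-23). For Lgmn B cells gave 124 to 129.9 and T cells 4.04 to 10.2 CPM (edgeR log2 fold 4.21, SE 0.12, adjusted p = 5.1e-21). B cells exceeded T cells in all 4 libraries for both. Ctsh was at 315 to 343 in B cells and 0.776 to 8.98 CPM in T cells (edgeR log2 fold 6.33, SE 0.14, adjusted p = 1.9e-23). For Ctsz B cells gave 257 to 282 and T cells 41.1 to 53.9 CPM (edgeR log2 fold 2.60, SE 0.07, adjusted p = 5.3e-22). Ctsc was at 209.8 to 256 in B cells and 53.9 to 75.4 CPM in T cells (edgeR log2 fold 1.75, SE 0.07, adjusted p = 7.4e-18). These proteases of antigen processing were low in T cells by comparison. For Ctsa B cells gave 137 to 154 and T cells 106 to 137 CPM (edgeR log2 fold 0.29, SE 0.06, adjusted p = 3.3e-04). Tpp1 was at 51.3 to 60.2 in B cells and 36.8 to 41.1 CPM in T cells (edgeR log2 fold 0.53, SE 0.09, adjusted p = 8.7e-06).

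Membrane, lipid and glycan genes followed with smaller folds for most. For Lamp1 B cells gave 158 to 180.02 and T cells 141 to 156 CPM (edgeR log2 fold 0.21, SE 0.05, adjusted p = 0.0017). Lamp2 was at 45.9 to 51.2 in B cells and 23.3 to 28.1 CPM in T cells (edgeR log2 fold 0.92, SE 0.09, adjusted p = 4.3e-09). For Cd68 B cells gave 3.93 to 9.52 and T cells 2.33 to 7.62 CPM (edgeR log2 fold 0.78, SE 0.28, adjusted p = 0.019). Lamp1 was close between the cell types and not called with thinned cells, and Cd68 was low in both. The call of Cd68 was lost without the Aire-/- isotype library (0.45); also with DESeq2, without the block or without the top 2% of cells. Psap was at 616 to 654 in B cells and 293 to 339 CPM in T cells (edgeR log2 fold 1.05, SE 0.05, adjusted p = 1.0e-16). For Asah1 B cells gave 31.5 to 39.7 and T cells 15.1 to 22.6 CPM (edgeR log2 fold 0.90, SE 0.11, adjusted p = 6.4e-08). Each B cell value of Psap was above each T cell value. Ppt1 was at 62.6 to 69.96 in B cells and 46.2 to 52.1 CPM in T cells (edgeR log2 fold 0.46, SE 0.08, adjusted p = 1.7e-05). For Grn B cells gave 62.8 to 79.3 and T cells 17.1 to 20.04 CPM (edgeR log2 fold 1.88, SE 0.10, adjusted p = 3.9e-15).

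Hexa was at 46.1 to 56.1 in B cells and 26.9 to 33.3 CPM in T cells (edgeR log2 fold 0.86, SE 0.09, adjusted p = 1.6e-08). For Gusb B cells gave 33.7 to 37.7 and T cells 26.4 to 32.1 CPM (edgeR log2 fold 0.26, SE 0.10, adjusted p = 0.03). Man2b1 was at 122 to 148 in B cells and 70.01 to 98.7 CPM in T cells (edgeR log2 fold 0.72, SE 0.06, adjusted p = 1.1e-10). B cells were above T cells for each of these glycosidases. Gusb lost its call without the Aire+/+ isotype (0.18), Aire+/+ anti-PD1 (0.26) or Aire-/- anti-PD1 library (0.28); also with DESeq2, under library totals alone, with thinned cells or without the top 2% of cells. For Acp5 B cells gave 201 to 226 and T cells 183 to 212 CPM (edgeR log2 fold 0.15, SE 0.05, adjusted p = 0.011). Acp5 was not called without the Aire-/- isotype library (0.14); also under library totals alone or without the block. Members higher in T cells took in cathepsins B, D and L and 2 genes of lipid transport and hydrolysis. Ctsb was at 104 to 126 in B cells and 167 to 220.4 CPM in T cells (edgeR log2 fold -0.66, SE 0.06, adjusted p = 1.2e-09). For Ctsl B cells gave 6.07 to 7.996 and T cells 10.8 to 18.3 CPM (edgeR log2 fold -0.98, SE 0.20, adjusted p = 1.6e-04). Ctsd was at 41.9 to 46.2 in B cells and 233 to 291 CPM in T cells (edgeR log2 fold -2.54, SE 0.07, adjusted p = 7.0e-22). T cells held these cathepsins above B cells in every library. For Npc2 B cells gave 139 to 147 and T cells 479 to 531 CPM (edgeR log2 fold -1.79, SE 0.05, adjusted p = 8.8e-22). Lipa was at 25.8 to 26.9 in B cells and 51.8 to 61.6 CPM in T cells (edgeR log2 fold -1.08, SE 0.09, adjusted p = 4.5e-11). Atp6v0d2 had 0 UMIs in B cells of all 4 libraries and 8, 11, 13 and 15 in T cells, at least 48.6-fold higher in T cells against a floor of 3 counts over the group (95% lower limit from both counts 37.98-fold), and the median of the members is the same with this bound. Of the other lysosome genes 32 of 67 were higher in B cells (background 25.8%) and 17 lower (background 27.6%), median 0.12. They were led by Atp6v0a1 5.09, Plbd1 3.96 and Scpep1 3.26 in B cells and by Gpnmb -3.44, Igf2r -2.33 and Arsb -1.75 in T cells. The plasma list (Jchain, Mzb1 and Xbp1) was at 3296, 1958, 2361 and 2947 CPM in B cells with 3 of 3 genes and Jchain on top, and its part in the result was not tested.

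T cells held more of most cathepsins in tumor than in spleen, and less Acp5 and Lipa. In CD45+ libraries 13 of 28 members were higher in tumor T cells (background 29.6% of 10323 genes) and 7 lower (background 28.5%), with a median log2 fold of 0.23 beside -0.03. In T cells of the 8 CD8+ sorted libraries, added after the data were seen, 14 of 27 members were higher (background 37.6% of 11730 genes) and 8 lower (background 39.4%). Tumor T cells of the CD45+ libraries had UMIs of macrophage genes, with the macrophage list at 173, 71.2, 104 and 20.6 CPM against 18.3, 2.69, 0 and 17.5 CPM in spleen, 5 or 6 of 6 genes detected in tumor and Apoe on top, and its part in the result was not tested. The Aire+/+ isotype library had the most of them in its T cells and the Aire-/- anti-PD1 library the least. Lgmn was at 98.4, 28.5, 39.6 and 9.62 CPM in T cells of the CD45+ tumor libraries and 1.74, 1.63, 2.31 and 2.52 CPM in T cells of the CD8+ sorted ones. Every CD45+ value of Lgmn was above every CD8+ sorted value, so member levels in tumor T cells are read beside the sorted cells. The T gate uses Cd3 genes only, so T cells of the CD45+ libraries are not limited to CD8+ cells.

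Ctsb ranged over 248 to 398 in tumor and 167 to 220.4 CPM in splenic T cells (edgeR log2 fold 0.82, SE 0.13, adjusted p = 5.4e-04; sorted cells 1.11, adjusted p = 2.0e-06). For Ctss tumor T cells gave 228 to 489.9 and splenic ones 139 to 168 CPM (edgeR log2 fold 1.14, SE 0.13, adjusted p = 5.2e-05; sorted cells 0.05, adjusted p = 0.53). Lgmn ranged over 9.62 to 98.4 in tumor and 4.04 to 10.2 CPM in splenic T cells (edgeR log2 fold 2.49, SE 0.32, adjusted p = 1.1e-04; sorted cells 1.18, adjusted p = 0.003). Ctss was higher in tumor T cells of the CD45+ libraries, and in sorted cells its values overlapped between the tissues. For Ctsc tumor T cells gave 98.9 to 173 and splenic ones 53.9 to 75.4 CPM (edgeR log2 fold 0.90, SE 0.17, adjusted p = 0.0012; sorted cells 0.52, adjusted p = 2.5e-04). Ctsh ranged over 11.3 to 39.3 in tumor and 0.776 to 8.98 CPM in splenic T cells (edgeR log2 fold 2.42, SE 0.48, adjusted p = 0.0017; sorted cells 1.62, adjusted p = 0.0039). For Ctsz tumor T cells gave 67.96 to 221 and splenic ones 41.1 to 53.9 CPM (edgeR log2 fold 1.48, SE 0.17, adjusted p = 6.0e-05; sorted cells 0.38, adjusted p = 0.002). These exopeptidases were higher in tumor in both kinds of library. Ctsd ranged over 317 to 499 in tumor and 233 to 291 CPM in splenic T cells (edgeR log2 fold 0.64, SE 0.08, adjusted p = 1.5e-04; sorted cells 0.83, adjusted p = 1.1e-05). For Ctse tumor T cells gave 13.8 to 18.8 and splenic ones 34.9 to 40.1 CPM (edgeR log2 fold -1.05, SE 0.12, adjusted p = 6.6e-05; sorted cells -0.86, adjusted p = 2.6e-05). The aspartic cathepsins thus parted, Ctsd being higher in tumor and Ctse in spleen.

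Lamp1 ranged over 113 to 127 in tumor and 141 to 156 CPM in splenic T cells (edgeR log2 fold -0.24, SE 0.07, adjusted p = 0.019; sorted cells -0.30, adjusted p = 0.0022). For Lamp2 tumor T cells gave 50.9 to 77.5 and splenic ones 23.3 to 28.1 CPM (edgeR log2 fold 1.23, SE 0.11, adjusted p = 1.2e-05; sorted cells 1.09, adjusted p = 9.5e-06). Lamp2 was higher and Lamp1 lower in tumor T cells. The call of Lamp1 was lost without the Aire+/+ anti-PD1 (-0.21), Aire-/- isotype (-0.23) or Aire-/- anti-PD1 library (-0.23); also with DESeq2 or without the filter on low counts. Cd63 ranged over 3.95 to 11.7 in tumor and 0.508 to 4.04 CPM in splenic T cells (edgeR log2 fold 2.07, SE 0.51, adjusted p = 0.0065; sorted cells 3.86, adjusted p = 2.1e-04). For Cd68 tumor T cells gave 20.3 to 78.04 and splenic ones 2.33 to 7.62 CPM (edgeR log2 fold 3.30, SE 0.20, adjusted p = 6.6e-07; sorted cells 2.72, adjusted p = 1.7e-06). Both Cd63 and Cd68 were low in splenic T cells. Asah1 ranged over 32.9 to 50.9 in tumor and 15.1 to 22.6 CPM in splenic T cells (edgeR log2 fold 1.04, SE 0.16, adjusted p = 3.2e-04; sorted cells 1.15, adjusted p = 1.2e-06). For Ppt1 tumor T cells gave 52.03 to 64.8 and splenic ones 46.2 to 52.1 CPM (edgeR log2 fold 0.36, SE 0.09, adjusted p = 0.0058; sorted cells 0.43, adjusted p = 0.0063). Grn ranged over 65.8 to 145 in tumor and 17.1 to 20.04 CPM in splenic T cells (edgeR log2 fold 2.44, SE 0.16, adjusted p = 9.9e-07; sorted cells 2.29, adjusted p = 1.2e-07). Grn had nearly equal values in the 4 splenic libraries. For Lipa tumor T cells gave 33.3 to 35.5 and splenic ones 51.8 to 61.6 CPM (edgeR log2 fold -0.66, SE 0.09, adjusted p = 1.4e-04; sorted cells -0.83, adjusted p = 1.5e-05).

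For Hexa tumor T cells gave 12.9 to 20.4 and splenic ones 26.9 to 33.3 CPM (edgeR log2 fold -0.70, SE 0.14, adjusted p = 0.0022; sorted cells -0.51, adjusted p = 1.7e-04). With thinned cells Hexa (-0.55), Ctse (-0.55) and Ppt1 (0.39) lost their calls. Glb1 ranged over 12.5 to 16.1 in tumor and 17.95 to 22.4 CPM in splenic T cells (edgeR log2 fold -0.47, SE 0.14, adjusted p = 0.019; sorted cells -0.11, adjusted p = 0.3). Glb1 lost its call without the Aire+/+ isotype (-0.37) or Aire-/- anti-PD1 library (-0.45); also with DESeq2. For Acp5 tumor T cells gave 29.8 to 39.8 and splenic ones 183 to 212 CPM (edgeR log2 fold -2.34, SE 0.09, adjusted p = 3.2e-08; sorted cells -3.06, adjusted p = 1.2e-07). All splenic values of Acp5 were above all tumor values in both kinds of library. Atp6v0d2 had 6, 2, 2 and 1 UMIs in tumor T cells and 8, 11, 13 and 15 in splenic ones (edgeR log2 fold -3.00, SE 0.59, adjusted p = 0.0016). Ctsl and Npc2 had no call in the CD45+ libraries (0.17 and 0.01) and were lower in tumor in the sorted ones, with edgeR log2 folds of -1.43 (SE 0.17, adjusted p = 1.2e-04) for Ctsl and -1.12 (SE 0.08, adjusted p = 9.3e-06) for Npc2. Without a call in the CD45+ libraries, Psap was lower (-0.73, adjusted p = 2.2e-05) and Ctsa (0.37, adjusted p = 8.7e-04) and Tpp1 (0.22, adjusted p = 0.0068) higher in sorted tumor T cells. The fold of Tpp1 had the other sign in the CD45+ libraries. Of the other lysosome genes 32 of 66 were higher in tumor T cells (background 29.6%) and 7 lower (background 28.5%), median 0.26. They were led by Slc11a1 3.496, Plbd1 3.04 and Atp6v0a1 2.36 in tumor and by Sgsh -1.46, Neu1 -0.89 and Gaa -0.84 in spleen.

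**Figure D3:**
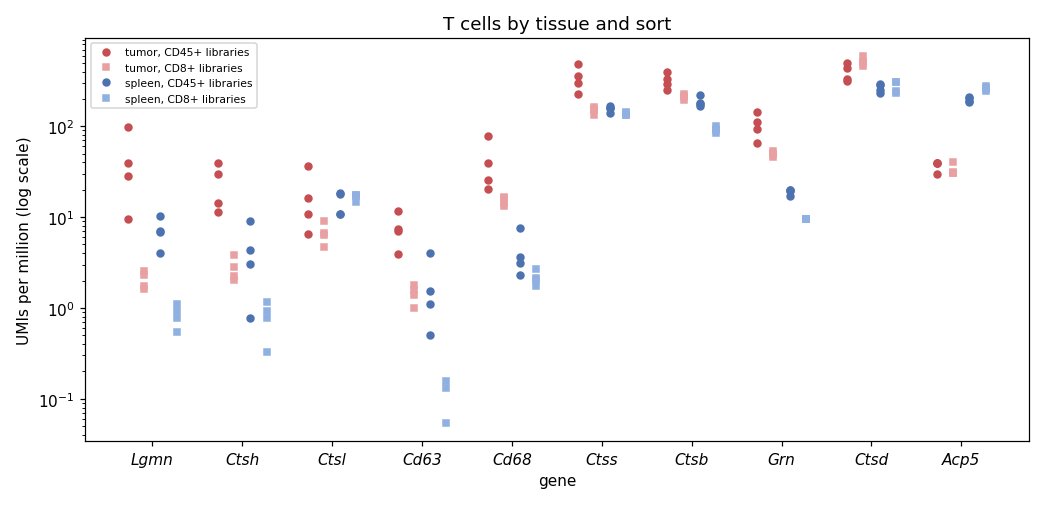
CPM of members in T cells of the CD45+ and the CD8+ sorted libraries of tumor and spleen, on a log axis from which zeros are left out. Each point is 1 library of a condition, with no error bars.

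Promoters of the members were searched for the E-box CACGTG and for 2 longer palindromes that contain it, TCACGTGA and a form with 1 more base at each end, which are known from genes of the lysosome. All 3 read alike on both strands, and a match to a longer form is counted in the shorter forms too. RefSeq promoters, 250 bases before to 50 after a start, were in the promoter table used for 23 members, and Ctsb, Ctsh, Ctse, Npc1, Asah1 and Atp6v0d2 were not in it. CACGTG was present in 6 of 28 promoters of these members (21.4%), those of Ctsa, Ctsd, Ctsl, Glb1, Lamp1 and Lgmn, in 19 of 65 of other lysosome genes (29.2%), and in 7.15% of 32851 promoters. TCACGTGA was present in 2 of 28, those of Ctsa and Ctsd, in 11 of 65 of other lysosome genes and in 0.974% of all. The longest form was in 0 of 28, in 2 of 65 of other lysosome genes, those of Cln3 and Igf2r, and in 0.326% of all. The 250 bases before the start of the 2 members with TCACGTGA are printed from the RefSeq promoters because they hold the longer of the 2 forms found in members, Ctsa at chr2:164833523-164833772 on the plus strand and Ctsd at chr7:142387828-142388077 on the minus strand of GRCm38.p6, with E-boxes and their matching flanks in capitals. Another RefSeq promoter of Ctsa had no E-box. The printed Ctsa promoter held a further TCACGTGA after the start, outside the printed bases. A match describes the sequence and says nothing on use.
Ctsa: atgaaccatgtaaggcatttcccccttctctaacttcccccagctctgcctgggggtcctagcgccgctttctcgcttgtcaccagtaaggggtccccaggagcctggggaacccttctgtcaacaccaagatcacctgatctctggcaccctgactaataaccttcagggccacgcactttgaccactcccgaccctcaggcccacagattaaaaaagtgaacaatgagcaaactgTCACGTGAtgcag
Ctsd: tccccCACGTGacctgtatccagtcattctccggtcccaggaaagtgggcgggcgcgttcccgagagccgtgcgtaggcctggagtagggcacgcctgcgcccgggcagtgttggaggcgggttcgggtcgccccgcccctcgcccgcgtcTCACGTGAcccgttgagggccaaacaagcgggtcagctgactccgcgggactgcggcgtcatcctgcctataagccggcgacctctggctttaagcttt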

How the data were processed

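The values are UMI counts per gene and barcode, which the authors made with Cell Ranger on GRCm38 and deposited for 16 10x libraries. The labels and the study's methods name a 3′ kit, and the methods on TCR libraries a 5′ kit for RNA libraries too. Rows of vector sequences were left out of all sums. Cells had at least 200 genes and at most 20% mitochondrial UMIs. Doublets were not called, and leaving out the top 2% of cells by UMIs was an alternative.

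Gates used raw UMIs. Macrophages had 5 or more of C1qa, C1qb and C1qc. Below that, T cells had 3 or more of Cd3d, Cd3e and Cd3g, and B cells 3 or more of Cd79a, Cd79b and Ms4a1. Monocytes had 5 or more of Lyz2, 3 or more of Ly6c2, Ccr2, Chil3, Ace, Treml4 and Ear2, and under 20 of S100a8 and S100a9. Dendritic cells had 3 or more of Flt3, Zbtb46, Xcr1, Clec9a, Cd209a, Fscn1 and Ccl22 and 5 or more of H2-Aa and H2-Ab1. Monocytes and dendritic cells also had under 2 UMIs of the Cd3 genes and under 2 of the B gate genes. Dendritic cells had under 2 of Siglech as well. The macrophage gate had no such limits. Cells in 2 gates had none.

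UMIs were summed per library and gate with 20 or more cells and tested with edgeR's quasi-likelihood test (TMM, filterByExpr, Benjamini-Hochberg), after a run on simulated data. Library was the block between gates and condition between tissues. Gate genes were not called. Members with 100 UMIs in macrophages of each tumor library, or past a threshold, are given by values. Of the other lysosome genes, up to 3 per direction are named. Results that need 4 withheld genes are not reported here, and the lists were read without these genes. The members and lists were chosen with earlier results of these data known. Tools were R 4.3.3, edgeR 4.0.16, limma 3.58.1, DESeq2 1.42.0, Python 3.11.15, numpy 2.4.6, scipy 1.17.1 and matplotlib 3.10.9.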

Additional observations from a re-analysis of the deposited data

Results flagged for a closer look

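These members were singled out because the log2 ratio of CPM, anti-PD1 over isotype, had opposite signs in Aire+/+ and Aire-/- tumors and passed 1.5-fold in at least 1 of them, with both counting intervals off 0. In tumor macrophages the log2 ratio of Ctsb was 0.19 in Aire+/+ and -0.72 in Aire-/-, that of Lgmn 0.18 in Aire+/+ and -0.78 in Aire-/-, and that of Cd63 0.080 in Aire+/+ and -0.76 in Aire-/-; Lgmn fell short of 1.5-fold with the gate on C1q CPM and Cd63 with thinned cells. In tumor monocytes Lgmn had 0.16 in Aire+/+ and -0.72 in Aire-/-, and Acp5 0.34 in Aire+/+ and -0.64 in Aire-/-, short of 1.5-fold with thinned cells. In tumor dendritic cells Cd68 had 0.59 in Aire+/+ and -0.50 in Aire-/-, short of 1.5-fold with the mean CPM of cells, thinned cells or without the top 2% of cells, and Ppt1 -0.41 in Aire+/+ and 0.99 in Aire-/-. With 1 library per condition the difference between the genotypes was not tested for any of them.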

How the results depend on the processing

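Of 312 member counts under alternatives 290 stayed within 1.5 times, and of 2273 member log2 folds 2162 kept sign and call, 70 lost a call, 30 gained 1 and 11 had the other sign. Of 239 log2 ratios 190 stayed inside their counting interval, 48 did not and 1 had the other sign. Under library totals alone 20 members were higher in macrophages than in monocytes (12 as reported) and 11 lower in tumor than in splenic monocytes (5 as reported), because this leaves out the TMM factors. The log2 folds over monocytes then were 0.15 for Ctsa, 0.14 for Cd68, 0.13 for Ppt1 and 0.16 for Man2b1, all of them called. Those of tumor over splenic monocytes were -0.057 for Ctsb, -0.34 for Asah1 and -0.32 for Gusb, with Asah1 and Gusb called. Without the replicate block 5 members were higher in macrophages than in monocytes (2139 of 10362 genes), and all other member counts stayed within 1.5 times. Members lower in tumor than in splenic monocytes were 3 with DESeq2, 3 with thinned cells and 3 to 5 with 1 library left out. Thinned cells also gave 4 members lower in tumor than in splenic T cells (7 as reported). With them Ppt1 was called for macrophages over dendritic cells, at a log2 fold of 0.65. T cells of the CD8+ sorted libraries gave log2 folds of tumor over spleen of -1.43 for Ctsl, 0.22 for Tpp1 and -1.12 for Npc2. For members past 1.5-fold, thinned macrophages gave 2 lower for Aire-/- over Aire+/+ under isotype (0 as reported) and 1 higher under anti-PD1, 1 higher for anti-PD1 over isotype in Aire+/+ and 1 higher in Aire-/- (0 as reported each). In monocytes under isotype, Aire-/- over Aire+/+ gave 1 lower with centred ratios and 1 lower with the mean CPM of cells (2 as reported), and 1 higher when thinned (0 as reported). Thinned Aire+/+ monocytes gave 1 higher and 1 lower for anti-PD1 over isotype (0 as reported). Thinned dendritic cells gave 1 higher for Aire-/- over Aire+/+ under isotype (0 as reported), a Ctsd log2 ratio of 0.82 there, 2 higher for anti-PD1 over isotype in Aire+/+ and 1 lower in Aire-/- (1 and 2 as reported). For that ratio in Aire+/+ dendritic cells the mean CPM of cells gave 0 higher and 0 lower, and leaving out the top 2% of cells gave 0 higher (1 as reported each). The cause was not tested for any of these. The test of dendritic cells between tissues and its alternatives were not run, because 1 spleen library reached 20 cells.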
